A study of Danio rerio with 6 samples.

Results

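The transcripts described here are those that reached an FPKM of at least 5 in each of the 3 libraries of zebrafish embryos at 24 hours post fertilization (hpf). FPKM counts the fragments of a transcript, divided by its length and by the size of the library. Of 58002 identifiers listed, 10025 met this limit and are called members below, and they are examined for the order in which the parental copper doses stood. The embryos were F1 offspring of wild-type AB zebrafish aged 3 months. The parents lived in normal water (control), in water with 0.078 µM (5 µg/L) copper, or in water with 0.156 µM (10 µg/L) copper, for over 21 days. All embryos grew in water without added copper. Each library was made from whole embryos, 50 to 60 per group, which were picked by phenotype, so parental dose and the picking cannot be told apart. The series holds 6 libraries, 1 per dose at 24 and at 96 hpf. According to the design text there were 3 biological repetitions of each group. The sources used here do not say how these entered a library. With 1 library per group there is no replicate error at 24 hpf, so the counts describe these libraries and carry no p-value.

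Copper is a cofactor of enzymes such as cytochrome c oxidase and copper-zinc superoxide dismutase, and in excess it drives oxidative damage, so cells buffer it with metallothioneins, chaperones and ATP-driven pumps. At 24 hpf the zebrafish embryo has a beating heart, segmented trunk muscle and a regionalized brain. By 96 hpf it has hatched into a larva. A response that grows with dose would place the 0.078 µM library between the control and the 0.156 µM library. The added doses are evenly spaced, which makes the first step (0.078 µM over control) and the second step (0.156 µM over 0.078 µM) equal in added copper.

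No member could be paired with a gene name: 4 of the 10025 are listed by gene and the rest by transcript, and 0 matched the gene tables used here. Copper-handling genes, DNA methylation enzymes and cell type markers therefore could not be looked up, and the label of whole embryos was not checked against markers. At 24 hpf the FPKM of a library summed to between 553252 and 562987, and members held 91.8% to 92.3% of it. The median member stood at 13.4 FPKM in the control library and at 13.6 FPKM in either copper library, and members reached 5382 to 5664 FPKM. Numbers of fragments are unknown. From the spacing of the lowest values, the depth over that of control was 1.01 times for the 0.078 µM library and 1.04 times for the 0.156 µM library. The limit of 5 FPKM lies within a dense range of values. The member closest above it had 5.35, 5.00004 and 5.92 FPKM in the control, 0.078 µM and 0.156 µM libraries, and the closest transcript below it had 4.9991, 5.45 and 5.73 FPKM. A further 1929 transcripts reached 5 FPKM in 1 or 2 of the libraries. They are 16.1% of the 11954 that reached it anywhere, and since they passed the limit in some libraries only, they hold many of the large differences.

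Members were nearly level across the doses. In whole embryos, fewer cells of a type and less RNA per cell cannot be told apart. On the scale of log2(FPKM + 1), the median difference from control was 0.00433 at 0.078 µM and 0.00405 at 0.156 µM. That of 0.156 µM minus 0.078 µM was -0.00317. The SD across transcripts was largest between the outer doses, at 0.240 for 0.156 µM minus control. It was 0.216 for 0.078 µM minus control and 0.216 for 0.156 µM minus 0.078 µM. The quartiles were closer to each other, at -0.0919 and 0.0979 for 0.156 µM minus control. They were -0.0898 and 0.0990 for 0.078 µM minus control, and -0.0886 and 0.0856 for 0.156 µM minus 0.078 µM. A fold of 1.5 on this scale, or 0.58 in log2, was taken as a step. By that limit 105 members were higher and 100 lower at 0.078 µM than in control, 1.05% and 0.998% of members, against 5.22% and 4.99% of a wider set, the 24537 transcripts at 1 FPKM or more in any of the 3 libraries. At 0.156 µM, 165 members were higher and 122 lower than control, 1.65% and 1.22%, against 6.46% and 5.33% of the wider set. Between the doses, 136 members stood higher in the 0.156 µM library than in the 0.078 µM library and 104 stood lower, 1.36% and 1.04%, against 5.93% and 5.13%. The smaller shares among members follow in part from the limit itself, which leaves out transcripts near 0 in a library. Altogether 468 members, 4.67%, had a pair of libraries 1.5-fold apart, against 18.9% in the wider set.

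**Figure D1:**
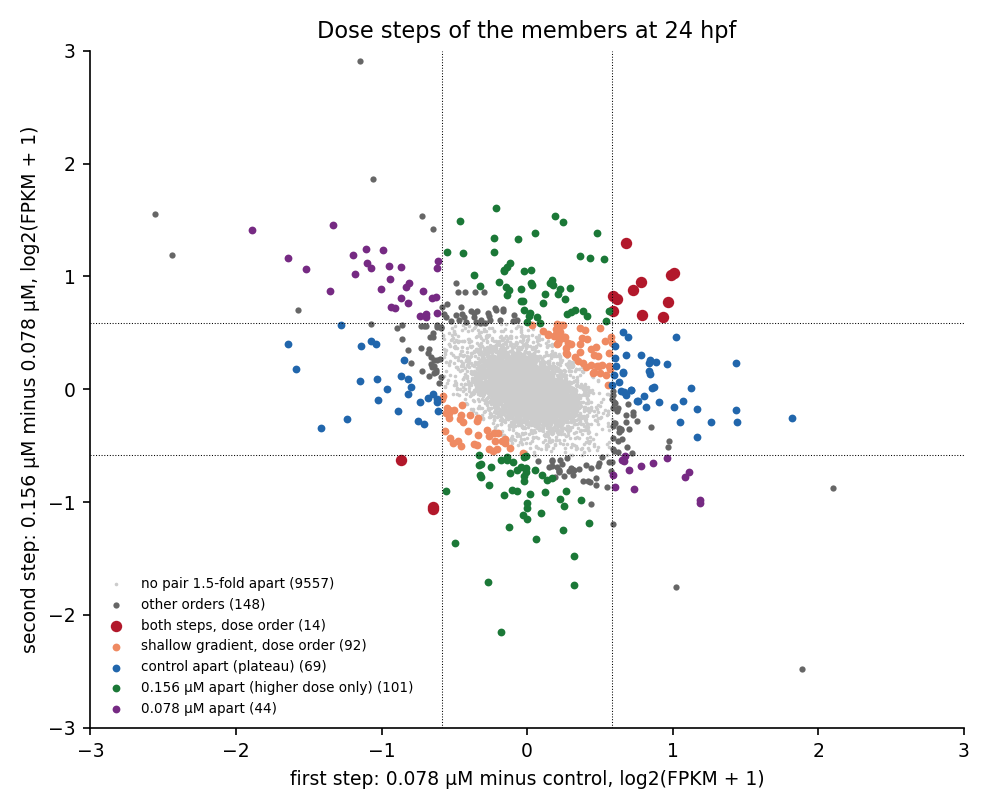
Each point is a member, placed by its first step (0.078 µM minus control, x axis) and its second step (0.156 µM minus 0.078 µM, y axis) in log2(FPKM + 1) at 24 hpf, with dotted lines at a fold of 1.5 and colours for the arrangement of the 3 libraries. The grey cloud holds 9557 members with no pair 1.5-fold apart, the 14 red points have both steps in the dose order, and 1 member lies outside the axes. Both axes use the 0.078 µM value, so the downward tilt of the cloud comes with the plot.

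The 468 members were sorted by which pairs of libraries were 1.5-fold apart, in a way that treats every order of the 3 libraries alike. Where all 3 pairs were apart, the member took a step on each side of the library in the middle. The middle library was 0.078 µM, as the dose order asks, in 14 members, 0.140% of all members, against 0.534% of the wider set. Control was in the middle in 7 members, 0.0698%, against 0.522% of the wider set, and 0.156 µM in 4, 0.0399%, against 0.465%. In the wider set the 3 orders were thus nearly level, at 131 transcripts with 0.078 µM in the middle, 128 with control and 114 with 0.156 µM. Of the 14 members in the dose order, 11 were higher at each step and 3 lower. These are 0.110% and 0.0299% of all members, against 0.334% and 0.2% of the wider set. The margin rests on few transcripts: at a fold of 2 the dose order held 1 member, and the orders with control or 0.156 µM in the middle held 1 and 2.

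A shallow gradient, in which the outer libraries were 1.5-fold apart and neither step reached that fold, ran in the dose order in 92 members, against 2.43% of the wider set. Of these, 54 were higher with dose and 38 lower, 0.539% and 0.379% of all members, against 1.38% and 1.06% of the wider set. The same pattern had control in the middle in 70 members and 0.156 µM in the middle in 67, against 1.97% and 1.8% of the wider set. The dose order thus held the most members here too, at 0.918% of all members against 0.698% and 0.668%. The wider set ranked the same way, at 2.43% against 1.97% and 1.8%, so this lead is not particular to the members. The outer doses were also the pair with the largest SD, and the part of that spread in these counts was not tested.

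**Figure D2:**
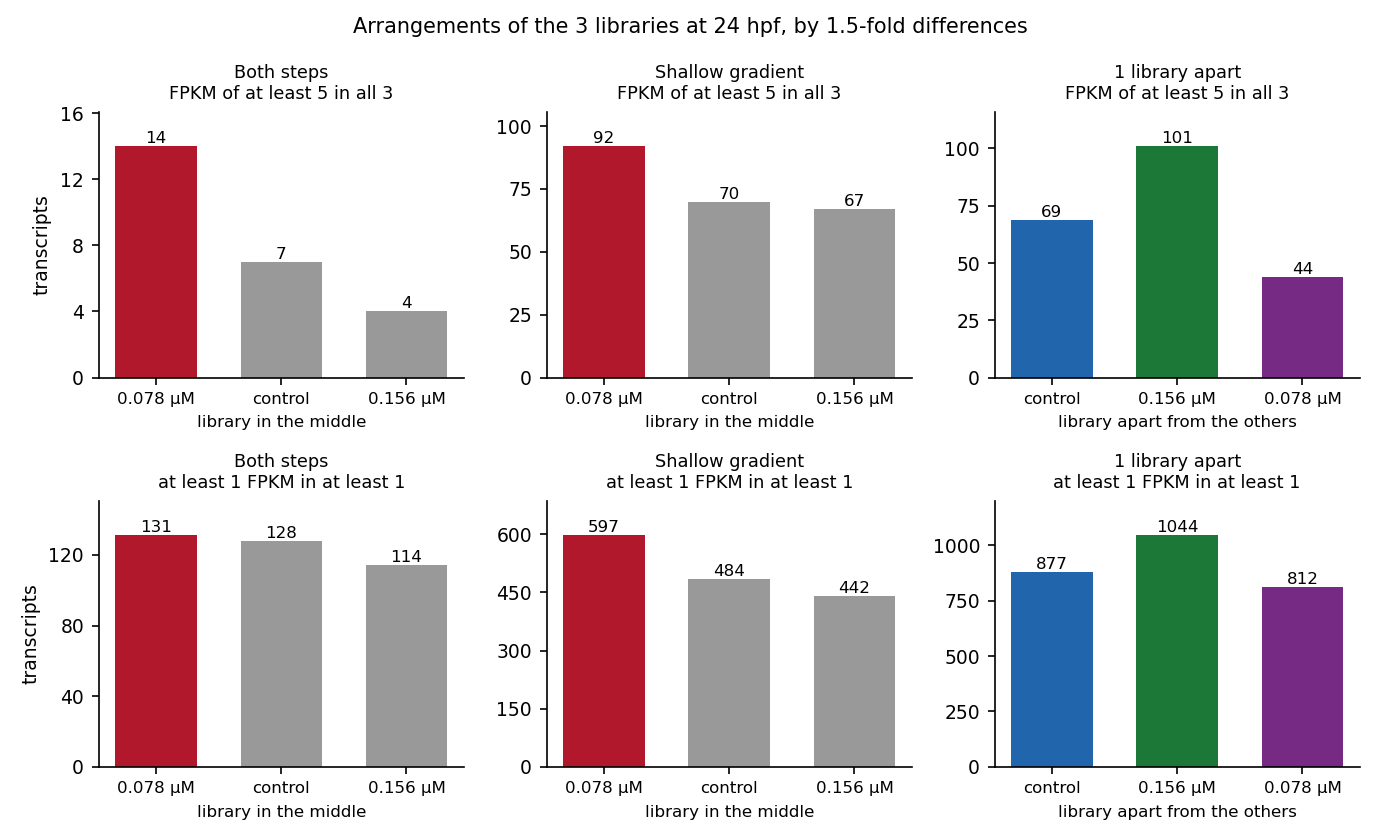
Bars give the number of transcripts at 24 hpf with both steps, a shallow gradient, or 1 library apart, by the library in the middle or the library apart. The upper row shows the members and the lower row the wider set of 24537 transcripts at 1 FPKM or more in any library. The dose order holds 14 members with both steps against 7 and 4, while the wider set holds 131 against 128 and 114.

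Without any fold, the rank order of the 3 libraries was close to evenly spread. The order control, 0.078 µM, 0.156 µM from low to high was found in 1760 members (17.6%) and its mirror in 1743 (17.4%). The commonest order, with 0.078 µM above 0.156 µM above control, was found in 1833 (18.3%). Summed over both directions, 0.078 µM was in the middle in 34.9% of members, 0.156 µM in 34.3% and control in 30.7%.

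The transcript with the largest smaller step upward was ENSDART00000116578, at 15.5, 32.2 and 66.9 FPKM in the control, 0.078 µM and 0.156 µM libraries. Its first step was 1.01 and its second 1.03 on the log2(FPKM + 1) scale, so its level was higher by a like factor at each dose. Ranking by the smaller step favours members whose steps are alike. ENSDART00000142811 came next, with 22.8, 46.3 and 94.3 FPKM in the control, 0.078 µM and 0.156 µM libraries and steps of 0.99 and 1.01. All 11 upward members were moderate in level, from 6.44 up to 22.8 FPKM in control, from 10.4 up to 46.3 FPKM in the 0.078 µM library, and from 18.9 up to 94.3 FPKM in the 0.156 µM library. Their FPKM at 0.156 µM was 2.63 to 4.32 times that in control, with a median of 3.14 times. The third in this ranking had 6.77, 12.3 and 24.8 FPKM with rising dose, and the last had 6.59, 10.4 and 19.3 FPKM. In the log2 scale the 0.078 µM library stood between 0.343 and 0.593 of the way from control to 0.156 µM in these 11. The median was 0.460. The 11 were chosen for having both steps at 1.5-fold or more, which by itself keeps the 0.078 µM library away from either end. Their place near the middle therefore cannot show how evenly the difference was shared between the steps.

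In the control library the 3 downward members, at 61.9 to 223.5 FPKM, lay above the 11 upward ones, while at 0.156 µM they lay within their range, at 21.4 to 68.6 FPKM. Sorting by direction favours such a gap in control. ENSDART00000057101 stood at 223.5, 142.2 and 68.6 FPKM in the control, 0.078 µM and 0.156 µM libraries, with steps of -0.65 and -1.04. ENSDART00000148324 had 134.5, 85.7 and 40.5 FPKM at the same doses, with steps of -0.64 and -1.06, so that in both transcripts the second step was the larger. The remaining one had 61.9, 33.5 and 21.4 FPKM, with steps of -0.86 and -0.62. At 0.156 µM the 3 stood at 0.301 to 0.347 of their control FPKM.

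**Figure D3:**
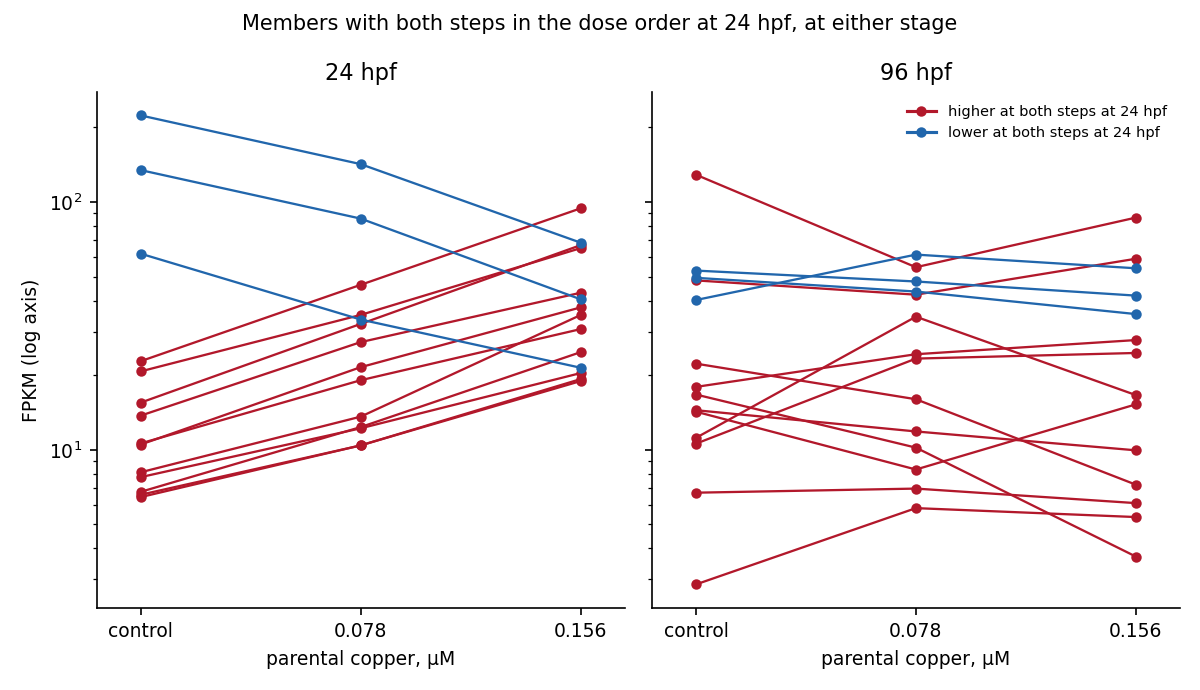
Lines join the FPKM (log axis) of each of the 14 members with both steps in the dose order, over parental copper from control to 0.156 µM, at 24 hpf (left) and 96 hpf (right). Red lines are the 11 that were higher at each step at 24 hpf and blue lines the 3 that were lower. At 96 hpf 2 of the 11 red lines and 2 of the 3 blue lines keep their order, where 24.5% of all members ranked upward with dose and 15.2% downward.

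How evenly a difference was shared between the steps was read from the place of the middle library among all members whose outer libraries were 1.5-fold apart. With 0.078 µM in the middle (203 members) it lay at a median of 0.434 of the way from control to 0.156 µM, with quartiles of 0.262 and 0.690. In 71 of them, 35.0%, it lay between 0.333 and 0.667 of the range. With control in the middle (138 members) 49 lay there, 35.5%, and with 0.156 µM in the middle (127 members) 40 did, 31.5%. The share with such an even split thus lay between those of the other orders.

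In a plateau after the first dose, both copper libraries stood 1.5-fold from control on the same side and within that fold of each other. It was found in 69 members, 0.688%, against 3.57% of the wider set. In 42 of them both doses were higher than control and in 27 lower. These are 0.419% and 0.269% of all members, against 1.84% and 1.73% of the wider set. Members were ranked by the smaller of their differences from the other libraries. The clearest upward plateau ran over 36.7, 132.3 and 110.8 FPKM with rising dose, and the one after it over 5.38, 16.2 and 19.2 FPKM. The downward one farthest from control had 400.3 FPKM in control against 6.33 and 9.97 FPKM in the copper libraries. Its difference from control was -5.77 at 0.078 µM and -5.19 at 0.156 µM. Its copper libraries were 0.580 apart in log2(FPKM + 1), just within the limit of 0.585. It was far from the next, with 24.3 FPKM in control and 8.44 and 6.44 FPKM at the copper doses.

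A change at the higher dose only was the most frequent arrangement with 1 library apart, with 101 members, 1.01%, against 4.25% of the wider set. In 53 the 0.156 µM library was higher than both others and in 48 lower. These are 0.529% and 0.479% of all members, against 2.36% and 1.9% of the wider set. The clearest increase had 53.3 and 60.9 FPKM in the control and 0.078 µM libraries and 178.7 FPKM at 0.156 µM. The clearest decrease had 38.8 and 34.1 FPKM in the control and 0.078 µM libraries and 6.90 FPKM at 0.156 µM. The 0.078 µM library stood apart from both others in 44 members, 0.439%, against 3.31% of the wider set. The higher dose stayed within 1.5-fold of control in these, which does not make it level with control. In 14 the 0.078 µM library was higher and in 30 lower. These are 0.140% and 0.299% of all members, against 1.65% and 1.66% of the wider set. The clearest of the 44 ran over 81.2, 21.1 and 58.0 FPKM with rising dose, with a difference from control of -0.48 at 0.156 µM. The 3 counts of 69, 101 and 44 ranked as in the wider set, where control was apart in 877 transcripts, 0.156 µM in 1044 and 0.078 µM in 812.

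The share of members 1.5-fold apart did not fall steadily with level. For 0.156 µM and control it was 2.0% of the 3502 members with a mean of 5 to 10 FPKM, 3.75% at 10 to 20 FPKM, 2.91% at 20 to 50 FPKM, 2.73% at 50 to 100 FPKM and 3.26% of the 674 members at 100 FPKM or more. In the lowest class the limit of 5 FPKM in all libraries leaves a member little room below, and the pseudocount of 1 shrinks differences most. Their parts in its lower share were not tested. The difference between the outer doses was the most frequent of the 3 pairs in each of the 5 classes of level. Of the 14 members with both steps in the dose order, 0 lay at 5 to 10 FPKM, 5 at 10 to 20, 6 at 20 to 50, 2 at 50 to 100 and 1 at 100 or more. With 5 FPKM needed in all libraries, the lowest class leaves little room for both steps, so its 0 says little.

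**Figure D4:**
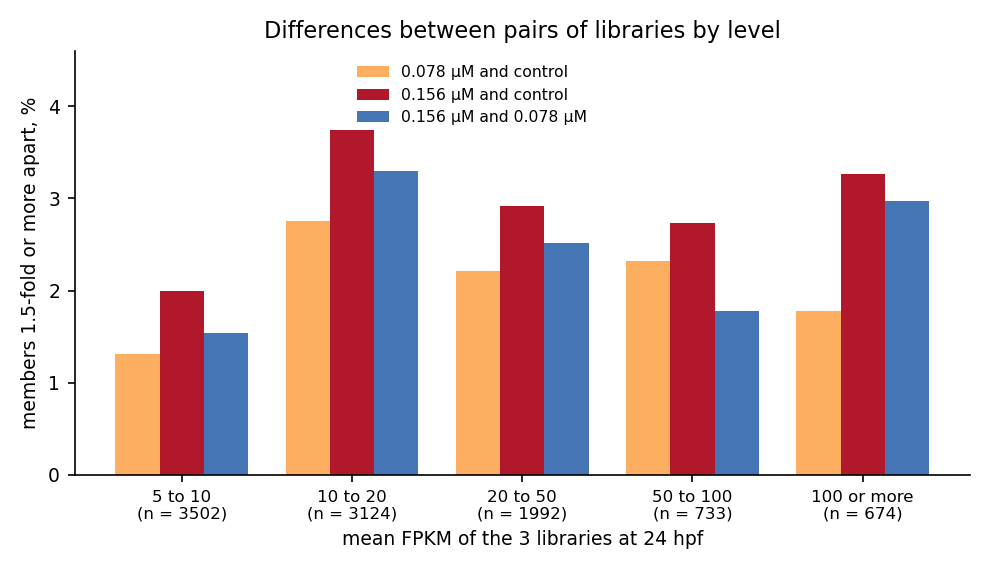
Bars give the percentage of members 1.5-fold or more apart for each pair of libraries at 24 hpf, by the mean FPKM of the 3 libraries, with the number of members under each class. The bar for 0.156 µM and control is the tallest in every class, from 2.0% at 5 to 10 FPKM to 3.75% at 10 to 20 FPKM.

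The libraries of 96 hpf were not used to sort the members, and they show whether the order at 24 hpf was found again 3 days later. Of the 11 upward members, 6 were above control at 0.156 µM at 96 hpf and 5 below, with a median difference of 0.09 on the log2(FPKM + 1) scale and a range of -1.91 to 1.14. In 2 of the 11 (18.2%) the 3 libraries again ranked upward with dose, and in 3 (27.3%) they ranked downward, against 24.5% and 15.2% of all members at 96 hpf. ENSDART00000116578 had 48.3, 42.3 and 59.0 FPKM at 96 hpf in the control, 0.078 µM and 0.156 µM libraries. ENSDART00000142811 had 22.3, 16.0 and 7.23 FPKM there, lower with rising dose, where at 24 hpf it was higher. Among the downward members, ENSDART00000148324 had 52.9, 47.8 and 41.9 FPKM at 96 hpf, still in falling order but by a difference of -0.33 at 0.156 µM over control, and ENSDART00000057101 had 40.2, 61.3 and 54.0 FPKM, above control at both doses.

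Taking both steps and shallow gradients in the dose order as one group of 106 members, 65 were higher with dose at 24 hpf and 41 lower. Of the 65, 12 were at least 1.5-fold higher at 0.156 µM than in control at 96 hpf and 6 lower, with a median difference of 0.06. Of the 41, 4 were higher and 5 lower, with a median of -0.02. Over all members the median difference at 96 hpf was 0.03, with 211 (2.1%) higher and 188 (1.88%) lower. In 10 members both steps or a shallow gradient ran in the dose order at both stages. Of these 5 were upward at both, 2 downward at both, 1 upward at 24 hpf and downward at 96 hpf, and 2 the other way. Members with 1 library apart at either stage are not in this count, even where their libraries ranked with dose. The 10 are 9.43% of the 106, against 1.47% of all members (147) that had either pattern in the dose order at 96 hpf. Members with a pair 1.5-fold apart at 24 hpf more often had such a pair at 96 hpf in any arrangement. This held for 41.9% of the 468, against 6.33% of all members, and its part in the 10 was not tested. By the same 2 patterns, control was in the middle at both stages in 0 members, of 77 at 24 hpf, against 0.918% of all members at 96 hpf. With 0.156 µM in the middle there were 2 of 71, 2.82%, against 0.708%. An upward example had 40.0, 47.9 and 66.3 FPKM with rising dose at 24 hpf and 12.9, 17.9 and 23.3 FPKM at 96 hpf.

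Members that differed between libraries at 24 hpf also tended to differ at 96 hpf, whichever the direction. Of the 468 members with a pair 1.5-fold apart at 24 hpf, 196 (41.9%) had such a pair at 96 hpf, against 439 of the 9557 level ones (4.59%). Among those that kept 5 FPKM in all 3 libraries of 96 hpf the numbers were 91 of 300 (30.3%) and 175 of 7762 (2.25%). The median of mean FPKM at 24 hpf was 14.6 for the 468 and 13.5 for the level ones. The share of members with such a pair at 24 hpf ranged from 3.60% at 5 to 10 FPKM to 6.02% at 10 to 20 FPKM. At 96 hpf 64.1% of the 468 and 81.2% of the level ones kept 5 FPKM in all 3 libraries. The part of level in these shares was not tested. Of the 165 members higher at 0.156 µM than in control at 24 hpf, 27 (16.4%) were higher and 36 (21.8%) lower by 1.5-fold at 96 hpf. By a fold of 2 the numbers were 10 and 27. Of the 122 that were lower at 24 hpf, 17 (13.9%) were higher and 16 (13.1%) lower by 1.5-fold at 96 hpf, or 8 and 8 by a fold of 2. Over all members 211 were higher and 188 lower by 1.5-fold at 96 hpf, and 65 and 76 by a fold of 2. The 165 include the 53 members in which 0.156 µM stood higher than both other libraries at 24 hpf. Of these 53, 6 were higher and 18 lower at 96 hpf by 1.5-fold. Only 22 of them (41.5%) kept 5 FPKM in all 3 libraries of 96 hpf, against 80.4% of all members. Members need not be independent of each other. Another member lay within 5% of their FPKM in all 6 libraries for 0 of the 106 in the dose order. This held for 4 of the 36 that were higher at 24 hpf and lower at 96 hpf (11.1%), against 1048 of all members (10.5%). Within 0.1% the numbers were 0 of the 106 and 2 of the 36 (5.56%), against 10 of all members (0.0998%).

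**Figure D5:**
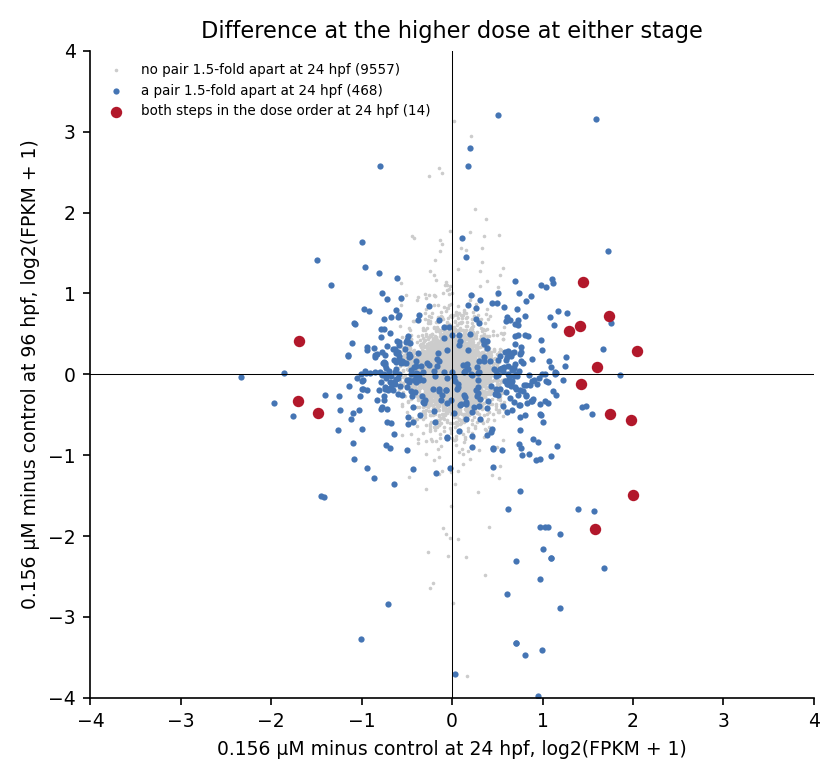
Each point is a member, placed by the difference of 0.156 µM minus control in log2(FPKM + 1) at 24 hpf (x axis) and at 96 hpf (y axis), in grey for members with no pair 1.5-fold apart at 24 hpf, blue for the others and red for the 14 with both steps in the dose order. Red points lie on either side of 0 at 96 hpf, between -1.91 and 1.14, and 11 members lie outside the axes.

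A dose slope was then tested over both stages with limma, which fitted log2(FPKM + 1) of all 6 libraries with the stage as a block and the dose in even steps, leaving 3 residual degrees of freedom. Its error is the disagreement between stages in their dose differences and the spread about the line, not a spread between clutches. The difference in level between stages is taken out by the block. No transcript was called: 0 of 30156 tested, members included, reached an adjusted p of 0.05 after Benjamini-Hochberg adjustment of the limma p-values (0% called). The smallest adjusted p among members was 0.472. Unadjusted p-values below 0.05 were found for 481 members (4.80%), 280 with a positive slope and 201 with a negative one, against 5.04% of all transcripts tested. The named transcripts were picked by their steps at 24 hpf, and the fit uses those values again, so their slopes are not separate evidence. ENSDART00000116578 was higher at 0.156 µM than in control by 2.04 in log2(FPKM + 1) at 24 hpf. At 96 hpf it was higher by 0.28, and 0.078 µM lay below control there. Its slope was 0.58 ± 0.20 (SE) per dose step, with an adjusted p of 0.904 in the limma fit. For ENSDART00000148324 it was -0.51 ± 0.16, also with an adjusted p of 0.904 in that fit. ENSDART00000142811 and ENSDART00000057101, whose stages went opposite ways, had slopes of 0.13 ± 0.39 and -0.32 ± 0.25, with adjusted p-values of 0.983 and 0.904 in the limma fit. The member with the smallest p in this limma fit had 5.03, 7.53 and 11.4 FPKM with rising dose at 24 hpf and 1.02, 2.05 and 3.26 FPKM at 96 hpf, with a slope of 0.53 ± 0.04.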

How the data were processed

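RNA of whole zebrafish embryos was sequenced, 1 library per parental group and stage. The values deposited by the authors are FPKM per transcript, per the file headers. The submitters' processing notes list Trimmomatic, TopHat2 and Cufflinks 2.1.1 without roles or settings. The sources used here give no genome build and no annotation. FPKM of a transcript depends on how Cufflinks divides fragments shared between transcripts, and it holds no fragment numbers, so no count test was run and no counting interval is given.

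Values were compared as log2(FPKM + 1), a pseudocount of 1 that understates changes of low transcripts. Relative depth was read from the commonest ratio among values of 0.005 to 0.3 FPKM. Every order of the 3 libraries was counted by the same rule. The named transcripts are the 2 per direction with both steps in the dose order and the largest smaller step, and other examples are given without identifiers. The dose slope was fitted with limma 3.58.1 in R 4.3.3 on transcripts that reached 1 FPKM in any of the 6 libraries, with a variance trend. The fit was tried on simulated data, with planted slopes larger than those of the members with both steps in the dose order. Whether it could call slopes of their size was not tested. Other steps used Python 3.11.15. The members, limits and tests were chosen with earlier results of these data known.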

Additional observations from a re-analysis of the deposited data

Results flagged for a closer look

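Some members went opposite ways with dose at 24 and 96 hpf. Whether the stages differ was not tested. In 3 members both steps or a shallow gradient ran in the dose order at both stages, in opposite directions. Members with 1 library apart at a stage are not counted, such as ENSDART00000142811, where 0.156 µM stood apart at 96 hpf. One of the 3 had 13.7, 27.2 and 43.0 FPKM in the control, 0.078 µM and 0.156 µM libraries at 24 hpf. At 96 hpf it had 16.7, 10.2 and 3.71 FPKM. The 2 that were lower with dose at 24 hpf were low at 96 hpf. They had 3.58e-30, 1.17 and 4.97 FPKM, and 3.63, 4.87 and 6.56 FPKM, in the same order of libraries. At 24 hpf they had 355.2, 296.2 and 204.5 FPKM, and 9.94, 8.84 and 6.25 FPKM. A value of 3.58e-30 FPKM is in effect no signal, so the order of the former at 96 hpf rests on values below 5 FPKM. ENSDART00000142811, higher with dose at 24 hpf, was lower than control at both doses at 96 hpf, with a log2 difference of -1.50 at 0.156 µM. ENSDART00000057101, lower with dose at 24 hpf, was higher than control at both doses at 96 hpf, with a log2 difference of 0.42 at 0.156 µM.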

How the results depend on the processing

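The counts of arrangements depend on the limits and little on the scaling. In the order both steps in the dose order, shallow gradient in the dose order, control apart, 0.156 µM apart, 0.078 µM apart, and both steps in the other orders, a smaller step of 0.32 in log2 gave 54, 307, 263, 302, 210 and 54 members. The last 54 were 28 with control and 26 with 0.156 µM in the middle. A fold of 2 gave 1, 41, 14, 30, 13 and 3. A pseudocount of 5 gave 6, 55, 42, 71, 25 and 5. With at least 1 FPKM in all 3 libraries the counts were 34, 332, 278, 327, 217 and 38, of 19876 transcripts. With at least 10 FPKM they were 9, 40, 31, 50, 19 and 4, of 6057. With 5 FPKM in at least 1 library they were 63, 162, 222, 285, 189 and 93, of 11954. The main set held 10025, so part of each shift comes with the size of the set. A pseudocount of 0.1, quantile normalization, a common sum of 1000000 and centred medians kept each count within 1.5 times. Both steps were most frequent with 0.078 µM in the middle under each of these alternatives but the fold of 2. With 5 FPKM in at least 1 library the numbers were 63 with 0.078 µM, 53 with control and 40 with 0.156 µM in the middle. Shallow gradients were most frequent with 0.078 µM in the middle under all of them. The 4 named transcripts kept both steps past 1.5-fold with a pseudocount of 0.1 and under each scaling. The limma fit called 0 members under its 11 alternatives, with unadjusted p-values below 0.05 for 299 to 708 of them. Leaving out 1 library at a time, which leaves 2 residual degrees of freedom, gave 0 calls each time. No paired analysis was possible because the labels give no replicate numbers and each group has 1 library. The stage block of the limma fit compares doses within a stage and pairs no replicates. Depth is unknown, so differences near the limits cannot be set against counting error.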
